A study of Homo sapiens with 3 samples.

Results

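The sensors of double-stranded RNA examined here comprised 9 genes, namely EIF2AK2, which encodes the kinase PKR, RIGI, IFIH1 (MDA5), DHX58 (LGP2), TLR3, OAS1, OAS2 and OAS3, together with MAVS, the adaptor shared by RIG-I and MDA5. They were chosen by symbol and not by any measured value, from a table of 58333 genes. All 9 were found in the table and all 9 passed the filter on low values, which 20858 genes passed.

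Gene expression had been measured by RNA-seq in Cal62, a human thyroid cancer cell line cultured in DMEM with fetal bovine serum. The cells carried a negative control siRNA (siControl) or an siRNA against ADAR1, siADAR1 #1 or siADAR1 #2, all introduced with Lipofectamine RNAimax. Every group had therefore received a double-stranded siRNA and the transfection lipid, and untransfected cells were not analysed here. Each group had 2 libraries of poly(A)+ RNA, numbered replicate 1 and replicate 2, sequenced with paired-end reads of 75 bp. The methods of the study describe 2 independent biological replicates, and what the number marks (a day, a passage or a batch) is not given in the sources used here. A single cell line was used, and in bulk RNA a change in the number of cells expressing a gene and a change in RNA per cell cannot be told apart.

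RIG-I, MDA5 and LGP2 are cytoplasmic helicases. The first pair pass the signal to MAVS on the mitochondrial surface, from which kinases activate the transcription of interferons and inflammatory genes. TLR3 does the same from the endosome, PKR phosphorylates the initiation factor eIF2α and stops translation, and the OAS enzymes synthesize the signalling oligonucleotide 2-5A. ADAR1 deaminates adenosines in double-stranded RNA and is known as a negative regulator of MDA5, PKR and the OAS pathway, and most of the sensors are themselves transcribed in response to interferon.

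The factors that act downstream of the interferon receptors bind paired GAAA half-sites, so the promoter windows of the members were searched on both strands for 2 copies of GAAA with any 2 bases between them or with any 1 base between them. The windows were those of RefSeq for GRCh38.p14, from 250 bases before to 50 bases after a gene start. Of 35116 windows, 3.57% held the motif with 2 bases between the copies, 3.12% held that with 1 base, 0.302% held both and 6.40% held either. Windows were matched for 7 of the 9 members, and 6 of these 7 held a match. DHX58 and OAS2 were not matched. Of the 20 interferon-stimulated genes listed for comparison, 16 were matched and all 16 held a match, whereas MAVS and ADAR had windows without one. The match nearest to the gene start is shown for each of the 6 members, with the motif in capitals. Whether the motif is related to the measured values was not tested. Such a match is a description of the letters and not a binding site.
EIF2AK2: caagggGAAAACGAAActgaga
IFIH1: agaatcGAAACAGAAAccaaag
RIGI: cggaggGAAACGAAActagcc
TLR3: actctcGAAAGTGAAAgtaaag
OAS1: tctgagGAAACGAAAccaaca
OAS3: gggcggGAAAACGAAAccagaa

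The stretches shown lie at chr2:37156971-37156992 on the minus strand for EIF2AK2, chr2:162318690-162318711 on the minus strand for IFIH1 and chr9:32526385-32526405 on the minus strand for RIGI. Those of TLR3, OAS1 and OAS3 lie at chr4:186069146-186069167 on the minus strand, chr12:112906939-112906959 on the plus strand and chr12:112938456-112938477 on the plus strand. All but that of TLR3 are on the strand of the gene. The motifs of EIF2AK2 and TLR3 begin 6 and 4 bases before the RefSeq start, and that of RIGI, the farthest, begins 203 bases before it. IFIH1 and OAS3 each held 2 further matches. In GENCODE release 44 (GRCh38), EIF2AK2 spans chr2:37099210-37157522, IFIH1 chr2:162267074-162318684, RIGI chr9:32455302-32526208 and DHX58 chr17:42101404-42112714, all on the minus strand. TLR3 spans chr4:186068911-186088073 and MAVS chr20:3846799-3876123, both on the plus strand. The OAS genes are neighbours on the plus strand of chromosome 12, in the order OAS1 (112905856 to 112933219), OAS3 (112938051 to 112976460) and OAS2 (112978395 to 113011723).

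The libraries held 30114840 to 50029763 reads on genes. A count of 0 leaves room for up to 3 reads, which correspond to 2.81 to 4.39 normalized counts. ADAR, the silenced gene, had 10906 and 11701 normalized counts in the siControl libraries, 1328 and 2246 with siADAR1 #1, and 1663 and 2928 with siADAR1 #2. All 4 siADAR1 libraries were thus well below both controls, with means of 15.8% and 20.3% of siControl. ADAR fell with siADAR1 #1 (log2FC -2.71, adjusted p-value 0.00295, limma) and with siADAR1 #2 (log2FC -2.35, adjusted p-value 0.00128), each with a standard error of 0.30. Of the thyroid markers, the transcription factor PAX8 had 10984 to 15557 reads in the siControl and siADAR1 #1 libraries and 2242 and 3744 with siADAR1 #2, NKX2-1 had 0 reads in every library and thyroglobulin (TG) had at most 55. PAX8 and FOXE1 fell with siADAR1 #2 (log2FC -1.99 and -1.21, adjusted p-values 0.00354 and 0.0239, limma), and of the epithelial keratins KRT18 fell and KRT19 rose with it (log2FC -0.85 and 1.18). The thyroid markers did not move together. Of the 5 tested, 2 had a log2FC above 0 with siADAR1 #2 and 3 below it. TSHR was at 1.35- and 1.46-fold of siControl within replicates 1 and 2 and was not called. TG was called as higher with siADAR1 #2 once the replicate number was blocked. The part of these changes in the values of the sensors was not tested. Of the blood-cell markers, CD3E, PTPRC, ITGAM and LYZ had at most 10 reads, and CD14 had 19 to 127.

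With siADAR1 #2, MAVS mRNA was lowered to less than it was in any siControl or siADAR1 #1 library. DHX58, OAS1, OAS2, RIGI and IFIH1 were higher than in the siControl library of the same replicate number, RIGI and IFIH1 by little in replicate 1. With siADAR1 #1 the fitted changes were smaller for all members but EIF2AK2. OAS1 and OAS2 were the members called as higher with siADAR1 #1 once the replicate number was taken into account. Both rises depended on replicate 2. Without siControl replicate 2 their log2FC went from 1.47 and 1.88 to 0.62 and 0.90, and without siADAR1 #1 replicate 2 to 0.83 and 1.51. For 7 of the 9 genes, all but DHX58 and MAVS, the fitted difference between replicate 2 and replicate 1 was larger than the fitted change with either siRNA. For EIF2AK2, IFIH1, OAS3 and TLR3, replicate 1 and replicate 2 gave opposite directions for at least 1 of the siRNAs. The replicates are therefore kept apart in what follows, and fits blocked by replicate number are given beside those without a block.

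**Figure D1:**
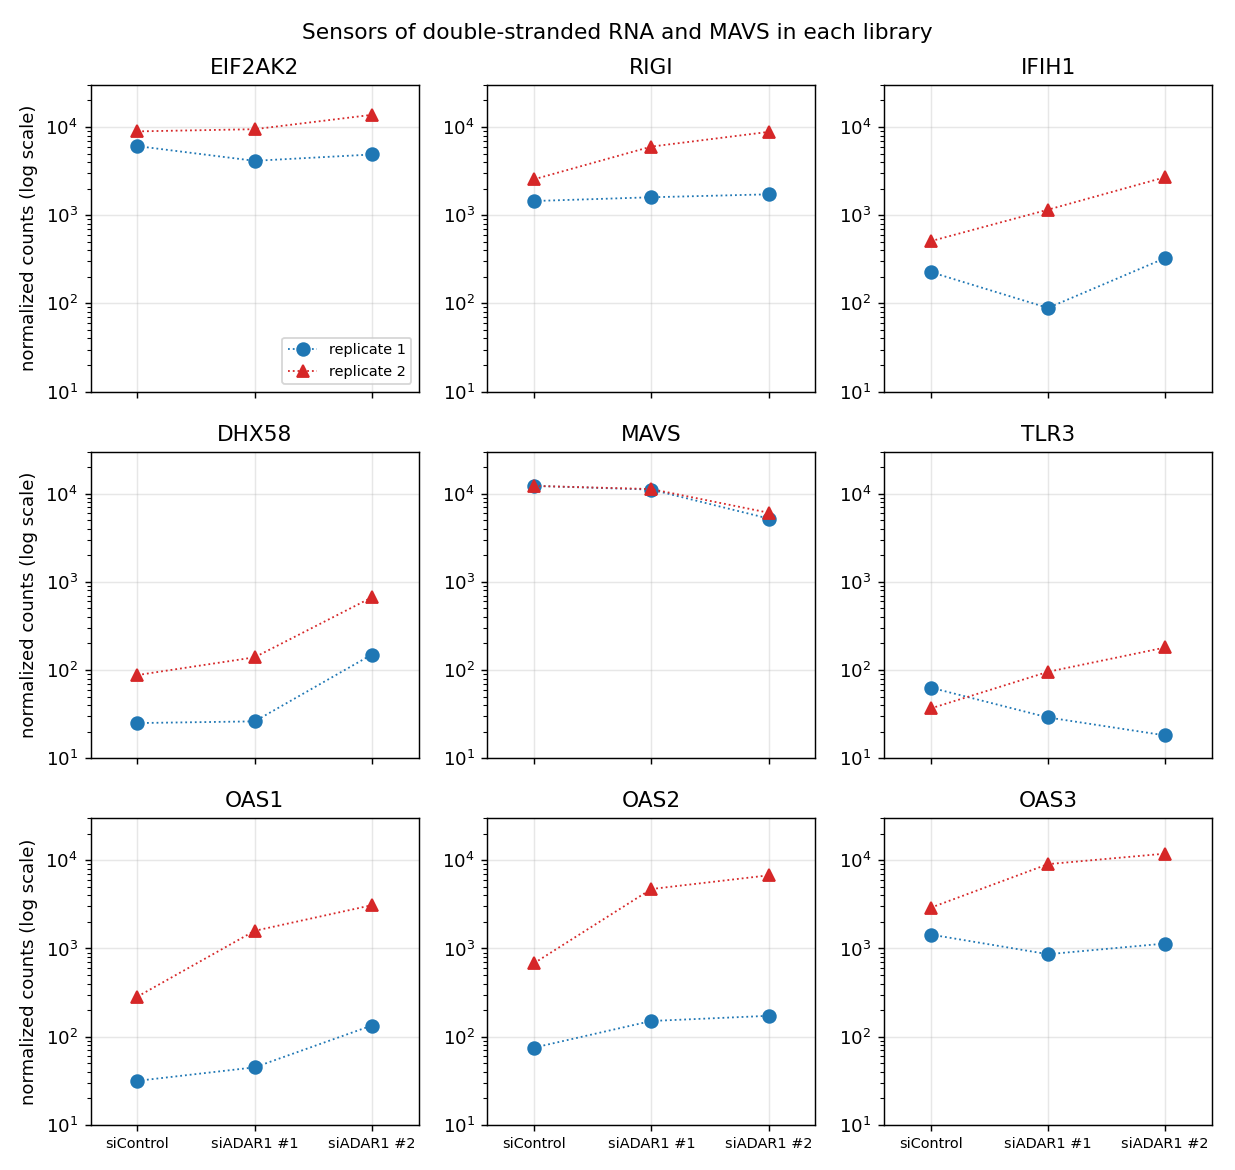
Normalized counts (log scale, vertical axis) of the 9 genes in the siControl, siADAR1 #1 and siADAR1 #2 libraries (horizontal axis), with replicate 1 as blue circles and replicate 2 as red triangles, joined by dotted lines within a replicate number. In 7 genes replicate 2 lies above replicate 1 in all 3 groups, while the replicates of MAVS nearly coincide (12243 and 12241 normalized counts in siControl) and those of TLR3 cross.

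Divided by the length of the canonical transcript, the mean siControl level was 1044 normalized counts per kb for MAVS and 751 for EIF2AK2. RIGI followed with 433 and OAS3 with 329 normalized counts per kb. The means of IFIH1 (103), OAS1 (96.9) and OAS2 (81.8) were close, and those of DHX58 (21.8) and TLR3 (8.30) were the lowest. On this scale the siControl libraries of MAVS (1043 and 1044) did not overlap those of EIF2AK2 (609 and 894), and these did not overlap those of RIGI (313 and 552). The libraries of RIGI and OAS3 (218 and 440) overlapped. Those of IFIH1 (63.3 and 142), OAS1 (19.4 and 174) and OAS2 (16.3 and 147) also overlapped, so the order among these 3 genes was not resolved. DHX58 (9.67 and 33.9) overlapped TLR3 (6.10 and 10.5) as well as OAS1 and OAS2, so its place in the order was not resolved. PKR and MAVS mRNAs were thus the most abundant of these genes in the siControl cells, which had been transfected too. Those of TLR3 and LGP2 had the lowest means.

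The first question was how the RIG-I-like receptors responded to the loss of ADAR1. RIGI, whose product recognizes RNA ends, had 1448 and 2556 normalized counts in siControl (replicate 1, then replicate 2), 1597 and 5997 with siADAR1 #1, and 1725 and 8803 with siADAR1 #2. Every siADAR1 library was above the siControl library of its own number, but replicate 1 of both siRNAs stayed below siControl replicate 2. Within replicate 1 the fold over siControl was 1.10 with siADAR1 #1 and 1.19 with siADAR1 #2, and within replicate 2 it was 2.35 and 3.44. The log2FC of 0.69 with siADAR1 #1 did not pass without or with the block (adjusted p-values 0.606 and 0.142, limma). With siADAR1 #2 the values gave a log2FC of 1.02 with a standard error of 0.80 and an adjusted p-value of 0.386 (limma). Once the replicate number was blocked, the same log2FC had a standard error of 0.30 and an adjusted p-value of 0.0312. That call was lost without siControl replicate 2 (log2FC 0.36, adjusted p-value 0.226) and without siADAR1 #2 replicate 2 (log2FC 0.52, adjusted p-value 0.104).

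IFIH1, whose product MDA5 recognizes long double-stranded RNA, had 226.5 and 507.9 normalized counts in siControl. With siADAR1 #1 it had 88.8 and 1156, and with siADAR1 #2 it had 326.6 and 2700. The lowest and the second highest library thus both came from siADAR1 #1. Within replicate 1 siADAR1 #1 gave 0.392 of the siControl level and within replicate 2 it gave 2.28-fold more, whereas siADAR1 #2 gave 1.44- and 5.32-fold more. These gave a log2FC of -0.07 with siADAR1 #1 (adjusted p-value 0.976, limma) and of 1.46 with siADAR1 #2 (adjusted p-value 0.426), both with a standard error of 1.24. With the block the change with siADAR1 #1 had an adjusted p-value of 0.937. That with siADAR1 #2 had one of 0.0492, and this call was lost without siControl replicate 2 (log2FC 0.37, adjusted p-value 0.397).

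DHX58 encodes LGP2, which lacks the signalling domain of the other receptors and modulates them. It was counted at 25.0 and 87.7 normalized counts in siControl, 26.2 and 139.4 with siADAR1 #1, and 149.7 and 666.5 with siADAR1 #2. Both siADAR1 #2 libraries were above all 4 other libraries. The fold over siControl with siADAR1 #2 was 5.98 within replicate 1 and 7.60 within replicate 2, against 1.05 and 1.59 with siADAR1 #1. The log2FC of 2.68 with siADAR1 #2 had an adjusted p-value of 0.0653 without the block (standard error 0.93, limma) and 0.000315 with it (standard error 0.27). With the block the call held with each library left out in turn, over log2FC values of 2.42 to 2.93. The log2FC of 0.36 with siADAR1 #1 passed in neither fit (adjusted p-values 0.833 and 0.405). Between the siRNAs DHX58 differed by a log2FC of 2.32, with an adjusted p-value of 0.0882 without the block and 0.000429 with it.

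MAVS, which carries the signal of RIG-I and MDA5 and is constitutively expressed in most cells, behaved differently from the receptors. It had 12243 and 12241 normalized counts in siControl, 11118 and 11271 with siADAR1 #1, and 5223 and 6079 with siADAR1 #2. The siADAR1 #2 libraries held 0.427 and 0.497 of the siControl level of the same number, and those of siADAR1 #1 held 0.908 and 0.921. MAVS was downregulated with siADAR1 #2 (log2FC -1.12, standard error 0.11, adjusted p-value 0.000537, limma), a call that held in all 16 settings tried, over log2FC values of -1.23 to -0.95. With siADAR1 #1 it did not pass (log2FC -0.13, standard error 0.11, adjusted p-value 0.477). The siRNAs differed from each other by a log2FC of -0.99 (standard error 0.11, adjusted p-value 0.000585), and this difference was also called in all 16 settings.

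TLR3, the endosomal sensor, was near the lower end of what was tested, with 16 to 123 reads per library. It had 63.2 and 36.7 normalized counts in siControl, 29.0 and 95.5 with siADAR1 #1, and 18.1 and 180.2 with siADAR1 #2. Within replicate 1 both siRNAs gave less than siControl (0.459 and 0.287 of it), and within replicate 2 both gave more (2.60- and 4.91-fold). The fitted log2FC values of 0.13 and 0.27 averaged these opposite directions, and neither passed with or without the block (adjusted p-values of at least 0.818, limma).

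EIF2AK2 had 6072 and 8919 normalized counts in siControl, 4137 and 9445 with siADAR1 #1, and 4880 and 13738 with siADAR1 #2. Its range across the 6 libraries was the narrowest of the sensors apart from MAVS. Relative to siControl of the same number it was at 0.681 and 1.06 with siADAR1 #1 and at 0.804 and 1.54 with siADAR1 #2, so replicate 1 was lower with both siRNAs and replicate 2 was higher. These gave a log2FC of -0.24 with siADAR1 #1 (adjusted p-value 0.795, limma) and of 0.15 with siADAR1 #2 (adjusted p-value 0.855), both with a standard error of 0.51, and with the block the adjusted p-values were 0.444 and 0.599. EIF2AK2 overlaps GPATCH11 on the opposite strand, which had 961 to 1831 reads, and whether the authors counted by strand is not given in the sources used here.

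OAS1 and OAS2 showed the widest range of the members. OAS1, which encodes the smallest of these enzymes, had 31.6 and 284.6 normalized counts in siControl, 44.9 and 1585 with siADAR1 #1, and 133.8 and 3095 with siADAR1 #2. All 4 siADAR1 libraries were above the control of their own number, by 1.42- and 5.57-fold with siADAR1 #1 and by 4.24- and 10.9-fold with siADAR1 #2, yet both replicate 1 libraries were below siControl replicate 2. The log2FC was 1.47 with siADAR1 #1 and 2.72 with siADAR1 #2 (standard error 1.88 for each, adjusted p-values 0.642 and 0.325, limma). With the block the standard error fell to 0.41 and OAS1 was upregulated with both, with adjusted p-values of 0.0349 and 0.00160. The first of these calls was lost without siControl replicate 2 (log2FC 0.62, adjusted p-value 0.231) and without siADAR1 #1 replicate 2 (log2FC 0.83, adjusted p-value 0.243), and the second held with each library left out. OAS1 overlaps a noncoding gene on the opposite strand that had 7 to 22 reads.

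OAS2 had 75.1 and 681.3 normalized counts in siControl, 150.6 and 4721 with siADAR1 #1, and 172.4 and 6750 with siADAR1 #2. Within replicate 1 the folds were 2.00 and 2.29, and within replicate 2 they were 6.93 and 9.91. The difference between the siRNAs (log2FC 0.35, standard error 0.43 with the block) had an adjusted p-value of 0.562, so none was established. The log2FC against siControl was 1.88 and 2.24 (standard error 1.99 for each, adjusted p-values 0.566 and 0.449, limma), and with the block the adjusted p-values were 0.0169 and 0.00512. With siADAR1 #1 the call was lost without siControl replicate 2 (log2FC 0.90, adjusted p-value 0.0517) and without siADAR1 #1 replicate 2 (log2FC 1.51, adjusted p-value 0.0953). With siADAR1 #2 it held with each library left out.

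OAS3, the largest of the family, had 1437 and 2902 normalized counts in siControl, 861.3 and 9044 with siADAR1 #1, and 1137 and 11892 with siADAR1 #2. Replicate 1 was below its control with both siRNAs (0.599 and 0.791 of it), and replicate 2 was 3.12- and 4.10-fold above. OAS3 was not called with either siRNA, with log2FC values of 0.45 and 0.85, adjusted p-values of 0.841 and 0.656 without the block (limma) and of 0.569 and 0.229 with it. With the block and siADAR1 #1, OAS3 was called as higher when siControl replicate 1 was left out, and as lower, like EIF2AK2 and IFIH1, when siControl replicate 2 was left out.

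**Figure D2:**
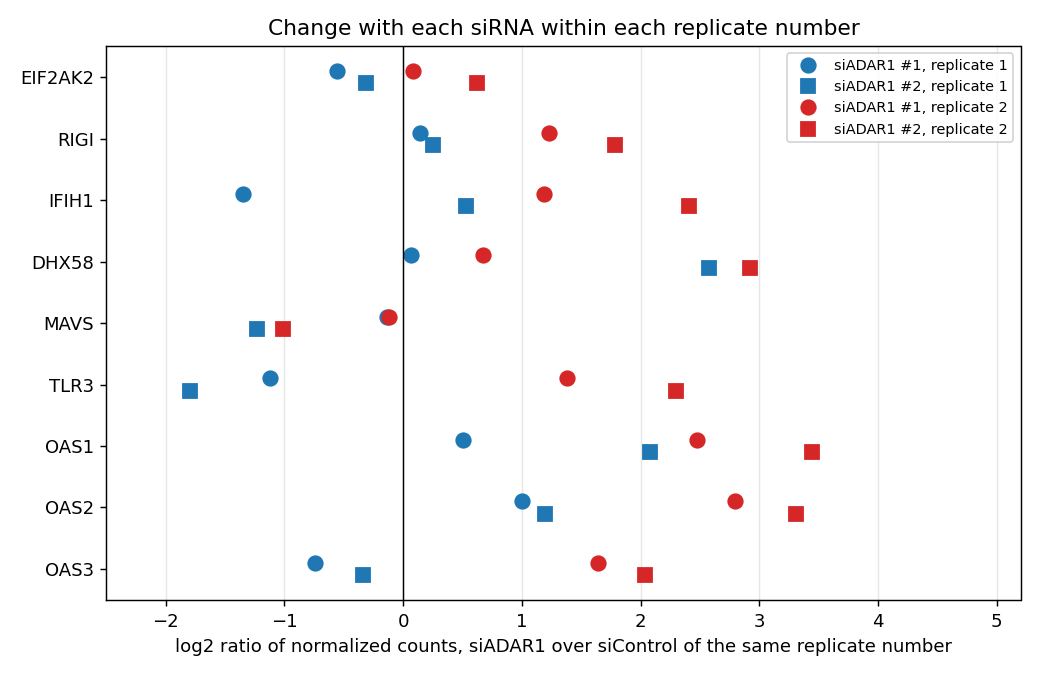
Log2 ratio of normalized counts of each siADAR1 library to the siControl library of the same replicate number (horizontal axis) for the 9 genes, with circles for siADAR1 #1, squares for siADAR1 #2, blue for replicate 1 and red for replicate 2. Within replicate 2 both siRNAs lie to the right of 0 for 8 genes, within replicate 1 for 4 genes, and MAVS lies to the left of 0 in all 4 libraries.

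Counted over the members, 0 of 9 passed with siADAR1 #1 in the fit without the block (limma, with an adjusted p-value under 0.05 and log2FC beyond 0.5), where 16.8% of all genes tested were called, 6.18% upwards. At an unadjusted p-value under 0.05 the count was also 0, and voom on the recovered reads called 0 as well. With the block 2 of 9 were upregulated, OAS1 and OAS2, against 7.34% of all genes upregulated and 19.6% called in either direction. With siADAR1 #2, 0 members were upregulated and MAVS was downregulated without the block, against 11.1% and 15.5% of all genes, or 26.6% in either direction. With the block 5 were upregulated (OAS1, OAS2, DHX58, RIGI and IFIH1), against 12.3%, and MAVS was downregulated, against 16.6%, so that 6 of 9 were called where 28.9% of all genes were. The median log2FC of the 9 members was 0.36 with siADAR1 #1 and 1.02 with siADAR1 #2, while over all genes tested it was -0.02 and -0.01.

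Between siADAR1 #2 and siADAR1 #1, MAVS was lower without the block and no member was higher, against 16.1% of all genes lower, 16.7% higher and 32.8% called in all. With the block OAS1, DHX58 and IFIH1 were also higher with siADAR1 #2 (adjusted p-values 0.0407, 0.000429 and 0.0355, limma), against 17.9% of all genes higher, 17.0% lower and 34.9% called in all. With the 4 siADAR1 libraries as 1 group, 0 of 9 members and 0.00% of all genes were called. ADAR, the silenced gene, was not called either (log2FC -2.53, adjusted p-value 0.0988, limma). Differences between the siRNAs add to the residual spread there, so the lack of calls does not show that the members were unchanged. The unadjusted p-values of the members were examined as well. No member had one under 0.05 in the fit with 1 siADAR1 group (0 of 9), and voom also called 0. With the block 0 of 9 were called as well, while OAS1 and OAS2 had unadjusted p-values of 0.0179 and 0.00622 (limma). In the table as a whole all 4 siADAR1 libraries were above both siControl libraries for 12.0% of genes and below both for 16.6%. None of the sensors was in the first set (0 of 9), and MAVS was in the second.

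**Figure D3:**
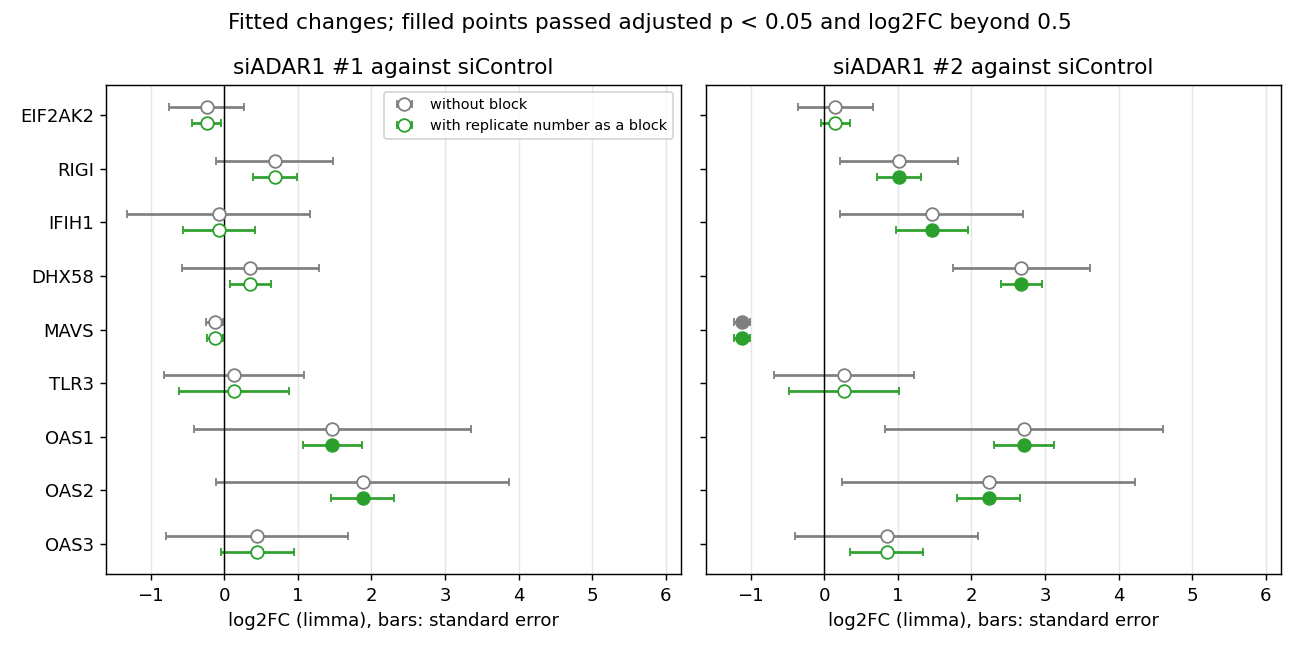
Fitted log2FC with its standard error (horizontal axis) of the 9 genes with siADAR1 #1 (left) and siADAR1 #2 (right), without the block in gray and blocked by replicate number in green. Filled points were called (adjusted p-value under 0.05, log2FC beyond 0.5), which 2 genes did with siADAR1 #1 and 6 with siADAR1 #2 when the block was used.

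The comparison of replicate 2 with replicate 1 was added after the values had been seen. Replicate 2 was above replicate 1 in each of the 3 groups for 7 of 9 members, all but MAVS and TLR3, and for 14.4% of all genes tested. The median fold of replicate 2 over replicate 1 across the 9 members was 2.02 in siControl, 5.33 with siADAR1 #1 and 8.27 with siADAR1 #2. OAS1 showed it most clearly, with 9.01-, 35.3- and 23.1-fold in the 3 groups. OAS2 had 9.07-, 31.4- and 39.2-fold, whereas MAVS had 1.00-, 1.01- and 1.16-fold. The siControl libraries, in which ADAR was not silenced, therefore differed in the same direction as the others for the 7 sensors, while TLR3 was at 0.581-fold in siControl and at 3.29- and 9.93-fold with the siRNAs. ADAR itself was at 1.07-, 1.69- and 1.76-fold. It was thus 8.21- and 6.56-fold below siControl in replicate 1 and 5.21- and 4.0-fold below in replicate 2, and the part of this difference in the values of the sensors was not tested.

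Fitted as a term beside the 3 groups, the replicate number was called for OAS1 (log2FC 4.22, standard error 0.33, adjusted p-value 0.00481, limma), OAS2 (4.45, standard error 0.35, adjusted p-value 0.00481) and DHX58 (2.05, standard error 0.22, adjusted p-value 0.0147). These were 3 of 9 members higher in replicate 2, against 0.129% of all genes tested higher and 0.0192% lower. RIGI (1.69), EIF2AK2 (1.08), IFIH1 (2.62) and OAS3 (2.59) did not pass, with adjusted p-values of 0.0619 to 0.0798. Without either siControl library or either siADAR1 #2 library all 4 of them passed and 7 members were called, while without siADAR1 #1 replicate 2 only OAS1 and OAS2 were (2 of 9). The share of all genes called rose in these fits too, from 0.149% to 0.326% and 0.312% without siControl replicate 1 and 2 and to 1.39% and 1.43% without siADAR1 #2 replicate 1 and 2. Of the 31 genes called in all, 18 were members or genes of the pathway lists, and 11 of these belonged to the interferon-stimulated genes. That total was not stable, with 38 to 298 genes called when a library was left out. TG, the thyroid hormone precursor, had 31, 44 and 55 reads in the replicate 1 libraries of siControl, siADAR1 #1 and siADAR1 #2, and 0, 1 and 24 in those of replicate 2. CDH1, which encodes E-cadherin, had 210.2 and 39.8 normalized counts in siControl, 49.6 and 52.8 with siADAR1 #1, and 196.2 and 36.6 with siADAR1 #2, so it was lower in replicate 2 in 2 of the 3 groups, and the part of these differences in the result was not tested.

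Whether the change with the siRNAs itself depended on the replicate number was tested as an interaction, also added after the values had been seen, with the siADAR1 libraries as 1 group. Of 20858 genes 0 passed an adjusted p-value of 0.05 (limma), which is 0.00% of them, and 131 had an unadjusted p-value under 0.05. The change of OAS3 was larger in replicate 2 by 2.37 on the log2 scale (standard error 0.53, unadjusted p-value 0.00899). That of TLR3 was larger by 3.14 (standard error 0.90, unadjusted p-value 0.0217) and that of OAS2 by 1.97 (standard error 0.60, unadjusted p-value 0.0266). All 3 had an adjusted p-value of 1.00, so a difference in response between the replicates was not established for any sensor. With the siRNAs in 1 group, differences between them add to the residual spread, which had 2 degrees of freedom. Even the fall of ADAR in replicate 1 did not pass in this fit (log2FC -2.87, adjusted p-value 0.981, limma). The lack of calls thus does not show that the replicates responded alike. Over replicate 2 alone, both siRNAs gave more than siControl for 8 of 9 members, against 28.6% of all genes. Over replicate 1 alone they did so for RIGI, DHX58, OAS1 and OAS2, 4 of 9, against 27.9%.

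**Figure D4:**
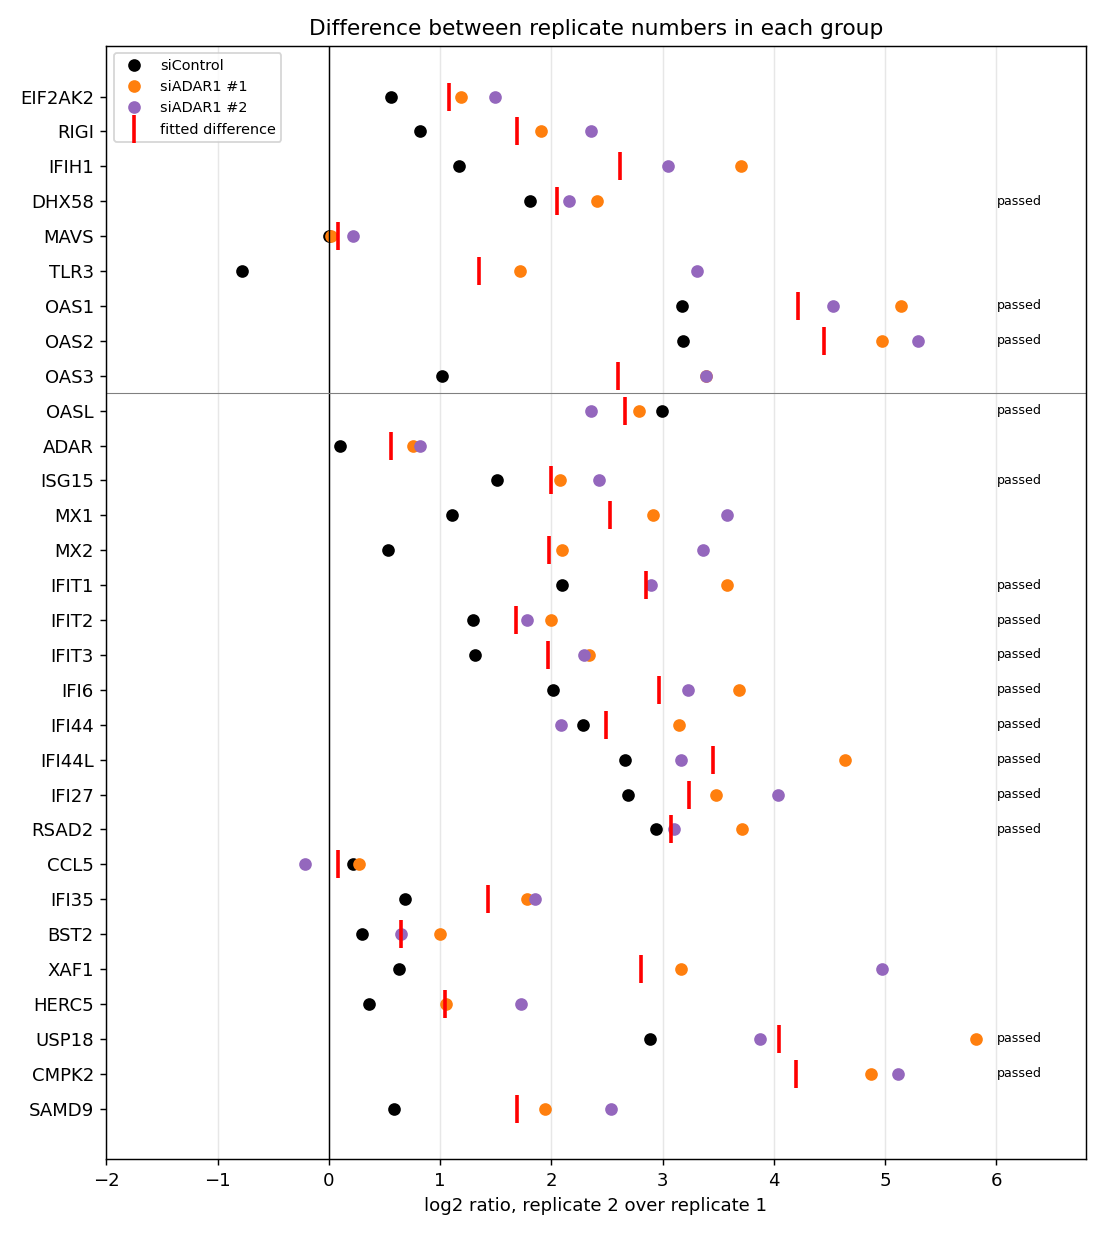
Log2 ratio of replicate 2 to replicate 1 (horizontal axis) in siControl (black), siADAR1 #1 (orange) and siADAR1 #2 (purple) for the 9 members (above the line) and for OASL, ADAR and the interferon-stimulated genes tested (below it), with the fitted difference as a red bar and the word passed where it was called. The 3 groups lie to the right of 0 for most genes, with OAS1 and OAS2 called at 4.22 and 4.45, while MAVS lies near 0; CMPK2 has no siControl point because its count there was 1 read in replicate 1.

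As a description over 6 libraries, which share the replicate difference, the log2 values of the 7 sensors other than MAVS and TLR3 rose and fell together, with a Pearson r of 0.76 to 0.99 over 21 pairs and a median of 0.93. Pairs with TLR3 had r values of 0.54 to 0.87 and pairs with MAVS had values of -0.69 to 0.02. The gene whose pattern was most like that of DHX58 was IRF9 (r 0.990), a transcription factor of the interferon response, for OAS2 it was HERC6 (r 0.995) and for TLR3 it was IL15RA (r 0.983), a receptor subunit for IL-15. For EIF2AK2, OAS1 and OAS3 the nearest patterns were those of the noncoding genes PSMB8-AS1 (r 0.985), LINC01549 (r 0.989) and LINC00485 (r 0.988), and for IFIH1 that of ZNF492 (r 0.999). MAVS was most like NDUFAF4 (r 1.00 when rounded), which encodes a mitochondrial assembly factor, and 1162 genes had an r over 0.95 with it, against 5 to 49 for the other members.

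The other genes of the pathways were examined as lists. In the fits without the block, 16.8% of all genes tested were called with siADAR1 #1 and 26.6% with siADAR1 #2. Of OASL, ABCE1 and PDE12, listed for the 2-5A pathway, 0 of 3 were called with siADAR1 #1 in the fit without the block (limma), while 1 (PDE12) had an unadjusted p-value under 0.05 and voom called 0. With siADAR1 #2, ABCE1, which recycles ribosomes, and PDE12, a phosphodiesterase that degrades 2-5A, were downregulated (log2FC -0.87 and -0.78, standard error 0.12 for each, adjusted p-values 0.00165 and 0.00298). OASL, an inactive relative of the OAS enzymes that binds RIG-I, had 27.2 and 216.2 normalized counts in siControl, 123.4 and 851.7 with siADAR1 #1, and 305.0 and 1561 with siADAR1 #2. With the block OASL was upregulated with both (log2FC 2.02 and 3.10, adjusted p-values 0.00115 and 0.000102). Its folds over the control of the same number were 4.53 and 3.94 with siADAR1 #1 and 11.2 and 7.22 with siADAR1 #2. They were larger in replicate 1 than in replicate 2, whereas those of OAS1, OAS2 and OAS3 were smaller.

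The list for the PKR arm held the other eIF2α kinases, the subunits of eIF2B, the eIF2α phosphatase subunits, PRKRA, DNAJC3, EIF2S1, ATF4 and DDIT3. In this arm 4 of 15 genes were upregulated and 1 downregulated with siADAR1 #1, and 3 and 5 with siADAR1 #2. Of all genes tested, 6.18% were upregulated and 10.6% downregulated with siADAR1 #1, and 11.1% and 15.5% with siADAR1 #2. DDIT3, which encodes the stress-induced factor CHOP, was at 740.5 and 659.9 normalized counts in siControl, 1206 and 1457 with siADAR1 #1, and 1941 and 2287 with siADAR1 #2. It was upregulated with each siRNA (log2FC 0.92 and 1.59, adjusted p-values 0.00898 and 0.000537, limma), in comparisons that share the siControl libraries. PPP1R15A, the inducible subunit of the eIF2α phosphatase, was upregulated with each as well (log2FC 0.69 and 1.30, adjusted p-values 0.0126 and 0.000576). ATF4 rose (log2FC 0.55) and EIF2AK4, the kinase GCN2, fell (log2FC -0.54) with siADAR1 #1. EIF2B1 (log2FC -0.96) and EIF2B2 (log2FC -1.43) fell with siADAR1 #2, and EIF2AK3, the kinase PERK, rose with it (log2FC 0.55). With the block EIF2B2 was also called with siADAR1 #1 (log2FC -0.65, adjusted p-value 0.0238). PPP1R15B, the constitutive phosphatase subunit, had a log2FC of 0.69 with siADAR1 #1 and -0.99 with siADAR1 #2. The median log2FC of the list was 0.21 and -0.07.

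Among ligases and cofactors of the RIG-I-like receptors, 0 of 14 were upregulated and 2 downregulated with siADAR1 #1, and 2 and 2 with siADAR1 #2. Over all genes tested the shares were 6.18% and 10.6% with siADAR1 #1, and 11.1% and 15.5% with siADAR1 #2. NLRX1, a mitochondrial protein known to restrain MAVS signalling, was downregulated with each siRNA (log2FC -1.44 and -1.41, adjusted p-values 0.00926 and 0.00478, limma). It had 691.5 and 643.6 normalized counts in siControl, 188.9 and 315.3 with siADAR1 #1, and 248.3 and 250.5 with siADAR1 #2. RNF135, a ubiquitin ligase of RIG-I, fell with siADAR1 #1 (log2FC -0.85). TRIM25, another ligase of RIG-I, and ZNFX1, a helicase that binds double-stranded RNA, rose with siADAR1 #2 (log2FC 0.98 and 1.10), and USP21, a deubiquitinase of RIG-I, fell (log2FC -0.54). With the block 1 and 4 genes were upregulated, with DDX60 added for siADAR1 #1 (log2FC 1.02) and DDX60 and DDX60L for siADAR1 #2 (log2FC 2.13 and 2.24). Of all genes tested, 7.34% and 12.3% were upregulated in these fits. The median log2FC of the list was 0.00 and 0.12.

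In the TLR3 arm, 6 of 7 genes were tested. CD14, a co-receptor that is also a marker of monocytes, rose with siADAR1 #1 (log2FC 1.5, adjusted p-value 0.0170, limma), and RIPK1, a kinase recruited by TLR3's adaptor, fell with siADAR1 #2 (log2FC -0.69, adjusted p-value 0.0308). RIPK3, which acts with RIPK1 in necroptosis, had at most 4.1 normalized counts and was not tested. Of 16 genes that signal below MAVS and the TLR3 adaptor, 0 were called with siADAR1 #1, while 4 had an unadjusted p-value under 0.05 and voom called 0. Among all genes tested 16.8% were called with siADAR1 #1 and 26.6% with siADAR1 #2. CASP8 alone fell with siADAR1 #2 (log2FC -0.56, adjusted p-value 0.0230). The list medians were -0.07 and 0.10. IRF7, the interferon-inducible member, passed with both siRNAs only with the block (log2FC 1.09 and 1.38, adjusted p-values 0.00920 and 0.00176).

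IFNB1, the main interferon of nonimmune cells, was barely counted, at 0 and 3 reads in siControl, 1 and 8 with siADAR1 #1, and 1 and 2 with siADAR1 #2. The other type I and type III interferons listed had at most 7 reads except IFNE, which had 28 to 77. Of 10 tested genes of the interferons and their receptors, IL10RB and IFNAR2, receptor subunits for type III and type I interferons, rose with siADAR1 #1 (log2FC 1.65 and 0.89, adjusted p-values 0.00392 and 0.0212, limma). STAT2 rose with siADAR1 #2 (log2FC 1.63, adjusted p-value 0.0177), while JAK1, the receptor kinase, and IFNLR1 fell (log2FC -0.99 and -1.41). With the block IRF9 (log2FC 1.61) rose with siADAR1 #2 as well.

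All 19 interferon-stimulated genes tested had a log2FC above 0 with each siRNA, with medians of 1.01 and 1.98. Over all 20858 genes tested, 10036 and 10232 were above 0. These values average the replicates, and within replicate 1 some genes were below siControl. With siADAR1 #1 these were MX2 (0.894 of it), IFI44 (0.891), IFI44L (0.774), BST2 (0.812), USP18 (0.588) and SAMD9 (0.765). With siADAR1 #2 they were MX2 (0.787) and XAF1 (0.521), and the other genes with a ratio in replicate 1 were above it. Without the block 0 of 19 were called with siADAR1 #1 (limma), 0 had an unadjusted p-value under 0.05 and voom called 0. Of all genes tested, 6.18% were upregulated with siADAR1 #1 without the block and 11.1% with siADAR1 #2. IFIT2 and IFIT3, which encode antiviral proteins that bind RNA complexes, rose with siADAR1 #2 (log2FC 3.19 and 3.16, adjusted p-values 0.0161 and 0.0318). IFIT2 had 202.5 and 495.7 normalized counts in siControl, 496.6 and 1986 with siADAR1 #1, and 1572 and 5408 with siADAR1 #2. With the block 8 of 19 were upregulated with siADAR1 #1 and 16 of 19 with siADAR1 #2, against 7.34% and 12.3% of all genes. Between the replicates the median log2FC of the 19 genes was 2.49, larger than either median with the siRNAs.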

How the data were processed

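The authors sequenced poly(A)+ RNA and trimmed the reads. Reads were counted on genes with bcbio-nextgen by the authors, who normalized these counts with DESeq2. The notes of the submitters name FastQC, featureCounts and Salmon, and the build GRCh38. The deposited values are log2 values from a variance-stabilizing transformation with a lowest value of 0.347736, and 0 columns were left unused. Undoing it gave whole reads for 100% of values within a tolerance of 0.1, and normalized counts are these values on the linear scale. Symbols came from GENCODE release 44 for 57830 of 58333 identifiers.

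The log2 values of the 20858 genes with a mean at or above the log2 of 10 (7.617 normalized counts) entered limma 3.58.1 (R 4.3.3, lmFit, eBayes with trend, two-sided, Benjamini-Hochberg over all of them). The residual degrees of freedom were 3 for 3 groups and 4 for the siADAR1 libraries as 1 group. With the replicate block they were 2 and 3, and the interaction had 2. Calls needed an adjusted p-value under 0.05 with log2FC beyond 0.5. Genes of the pathway lists were named when called in the same direction with both siRNAs or among the 3 smallest adjusted p-values per direction. OASL, DDX60, DDX60L, IRF7, IRF9 and the cell type markers given were named after their values were seen, and some genes of the lists are not reported here. The members, the lists and the tests were chosen with earlier results of these data known. Likeness was the highest Pearson r over 6 log2 values.

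The replicate number in the column names was checked over all genes tested. The difference of replicate 2 and replicate 1 correlated only weakly between pairs of groups, at 0.106, 0.110 and 0.162. Because all were over 0.1 the number was taken to pair the libraries, although these values do not establish a pairing. Without the block 0 members were upregulated with either siRNA, against 2 with siADAR1 #1 and 5 with siADAR1 #2 with it. Those calls thus rest on this choice. The steps recovered known changes in simulated data. For the siRNA changes the simulated siRNAs had equal effects, no replicate difference was added and the block was not used. The measured values differed between siRNAs and between replicates, so the simulation does not show how the fits perform on them. With 2 libraries per group, the number of replicates limits the precision, and limits from 3 reads cover counting error only. Alternatives were other filters, median-centred or quantile-normalized libraries, eBayes without a trend, the replicate block, log2 of the normalized count plus 1, voom on the recovered reads, fits with 4 libraries, the average of the siRNA changes and each library left out. The block with a library left out, the block with the average, the replicate term and the interaction were added after the values had been seen.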

Additional observations from a re-analysis of the deposited data

Results flagged for a closer look

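The changes with siADAR1 #1 and siADAR1 #2, which share the siControl libraries, differed from each other past the threshold (limma, 3 groups) for MAVS and for 16 named genes of the pathway lists. Differences are given as siADAR1 #2 minus siADAR1 #1 on the log2 scale. MAVS differed by -0.99 (adjusted p-value 0.000585), from changes of -0.13 and -1.12. Among genes of the 2-5A pathway, ABCE1 differed by -0.74. In the PKR arm DDIT3 differed by 0.67, PPP1R15A by 0.61, EIF2AK3 by 0.55, EIF2B1 by -1.19, EIF2B2 by -0.77 and PPP1R15B by -1.68, and the last of these changed in opposite directions. Of the cofactors of RIG-I-like receptors, TRIM25 differed by 0.96, ZNFX1 by 1.66 and USP21 by -0.53. CD14 differed by -2.07. Among genes of interferon reception, IL10RB differed by -1.21, IFNAR2 by -1.13, STAT2 by 1.36, JAK1 by -0.95 and IFNLR1 by -2.22. In the table as a whole 32.8% of genes tested differed between the siRNAs, so a difference of this kind was common. Groups of 2 libraries were too small to look for single libraries that stood apart.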

How the results depend on the processing

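Of the choices tried, the replicate block moved the number of members called most, from 0 to 2 with siADAR1 #1, from 1 to 6 with siADAR1 #2 and from 1 to 4 between the siRNAs, without any change in the log2FC values, because the fit then has a smaller residual spread. With siADAR1 #2, 2 members (MAVS and DHX58) were called with a filter at 50 normalized counts and in the fit with only the 4 libraries compared. With both siRNAs against siControl, the average of the changes called 1 member (MAVS), and the average with the block called 5. Leaving out 1 library without the block gave 0 members with siADAR1 #1, 1 to 2 with siADAR1 #2 and 1 to 3 between the siRNAs, where DHX58 was called without siADAR1 #1 replicate 2 or siADAR1 #2 replicate 1 and IFIH1 without the former. With the block, siADAR1 #1 gave 4 members without siControl replicate 1, 3 without siControl replicate 2, 2 without siADAR1 #1 replicate 1, 0 without its replicate 2 and 3 without either siADAR1 #2 library. The 3 without siControl replicate 2 were EIF2AK2, IFIH1 and OAS3, all of them lower than siControl. With siADAR1 #2 the block gave 7 without siControl replicate 1, 4 without siControl replicate 2, 6 without either siADAR1 #1 library, 8 without siADAR1 #2 replicate 1 and 5 without its replicate 2. The share of all genes called in these fits ran from 4.50% to 22.8% with siADAR1 #1 and from 15.6% to 29.8% with siADAR1 #2. A fit with the block and a library left out has 1 residual degree of freedom, and the lone library of a group is assumed to vary like the others. The replicate term gave 2 to 7 members and 38 to 298 genes in all with a library left out, in place of 3 and 31.

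Directions changed under scaling for 3 small values. IFIH1 with siADAR1 #1 became 0.073 with median-centred and 0.015 with quantile-normalized libraries, MAVS with siADAR1 #1 became 0.016 with median-centred libraries, and EIF2AK2 with both siRNAs became 0.040 and 0.058 under these scalings. Median centring shifted the log2FC values with siADAR1 #1 by 0.15 and changed the split of all genes called from 1290 up and 2212 down to 1951 up and 1706 down. Without a trend in eBayes 1347 genes were called with siADAR1 #1, in place of 3502. Without the block, leaving out 1 library at a time changed the direction of most sensors. The log2FC ranged with siADAR1 #1 from -0.83 to 0.36 for EIF2AK2, -1.90 to 1.76 for IFIH1, -0.27 to 1.64 for RIGI, -0.80 to 1.51 for DHX58, -0.69 to 0.95 for TLR3, -1.06 to 4.0 for OAS1, -0.59 to 4.36 for OAS2 and -1.24 to 2.15 for OAS3. With siADAR1 #2 it ranged from -0.59 to 0.90 for EIF2AK2, -0.055 to 2.98 for IFIH1, -0.16 to 2.19 for RIGI, -1.30 to 1.85 for TLR3, -0.40 to 4.87 for OAS2 and -0.84 to 2.54 for OAS3. Between the siRNAs it ranged from -0.36 to 1.14 for EIF2AK2, -0.30 to 3.37 for IFIH1, -0.84 to 1.51 for RIGI, -1.43 to 1.72 for TLR3, -1.29 to 3.78 for OAS1, -2.28 to 2.99 for OAS2, -1.30 to 2.09 for OAS3 and -0.054 to 0.76 for ADAR. With both siRNAs as 1 group it ranged from -0.35 to 0.24 for EIF2AK2, -0.066 to 1.56 for IFIH1 and -0.35 to 0.70 for TLR3. With the block and a library left out, the log2FC with siADAR1 #1 ran from 0.62 to 2.33 for OAS1 and 0.90 to 2.87 for OAS2. It ran from 0.10 to 0.61 for DHX58 and 0.03 to 1.34 for RIGI, while EIF2AK2, IFIH1, TLR3 and OAS3 still changed direction. With siADAR1 #2 only EIF2AK2, TLR3 and OAS3 did so with the block. MAVS with siADAR1 #2 and ADAR with each siRNA kept their direction and their call in all 16 settings. Depth limits TLR3 and DHX58 most, with as few as 16 and 23 reads in a library.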

Other observations

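Of the 31 genes called between replicate 2 and replicate 1, 13 were on none of the lists, and they are named after their values were seen. The 31 became 290 and 298 without siADAR1 #2 replicate 1 and 2, 68 and 65 without siControl replicate 1 and 2, and 40 and 38 without those of siADAR1 #1. Higher in replicate 2 were CXCL8, which encodes the chemokine interleukin-8, at a log2FC of 3.0 (adjusted p-value 0.00509, limma), LTB, a cytokine of the TNF family, at 3.18 (adjusted p-value 0.0182), CSF2, which encodes GM-CSF, at 2.91 (adjusted p-value 0.0443), and BIRC3, an apoptosis inhibitor, at 2.02 (adjusted p-value 0.00705). HERC6 (log2FC 1.57), NLRC5, an activator of MHC class I genes (log2FC 1.72), TNFRSF9 (log2FC 1.80), IGFN1 (log2FC 1.91) and RPL22L1 (log2FC 0.71) were higher as well. The 4 genes lower in replicate 2 were RNU1-1, a copy of the U1 small nuclear RNA (log2FC -2.79), MUC20, a mucin (log2FC -2.57), COL4A1, a basement membrane collagen (log2FC -0.89), and CCN2, a matricellular protein (log2FC -0.68). CXCL8 had 57.7 and 266.2 normalized counts in siControl, 217.0 and 2269 with siADAR1 #1, and 89.6 and 1022 with siADAR1 #2 (replicate 1, then replicate 2).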
